A study of Mus musculus with 10 samples.

Results

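The wild-normoxia hearts are the unchallenged baseline of this study, and their transcriptome is described here by itself, gene by gene and lineage by lineage. The group was chosen by its label and comprised 4 of the 10 samples of the series, the other samples being wild-type hearts exposed to gestational hypoxia (3 samples) and heterozygous Nkx2-5 mutant hearts kept in normoxia (3 samples). Wild-normoxia embryos were wild type, of the 129/Sv strain, from wild-type mothers mated with heterozygous Nkx2-5 mutant males and housed in room air, and the hearts were taken at E12.5, when the ventricular septum is still being completed. Whole hearts were used and several hearts were combined in each sample, so neither single embryos nor single chambers were resolved, and fewer cells of a type and less RNA per cell cannot be told apart. The files used here give 1 value per gene for the 4 libraries together, so no value per library, no replicate spread and no test between genes could be obtained.

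At this stage the mouse heart consists of working cardiomyocytes of the atria and ventricles, a lining of endocardium and vessels, an outer epicardium, and the mesenchyme of the cushions that form valves and septa. Cardiomyocytes contract through actin and myosin filaments whose proteins come in fetal, atrial, ventricular and skeletal versions, and a core set of transcription factors around Nkx2-5, Gata4 and Tbx5 drives their genes. The blood inside the chambers carries primitive red cells with embryonic globins, and the oxygen and fuel supply of the embryo favour glycolysis, with a rising share of mitochondrial respiration.

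Levels are given as fragments per 1000000 fragments of the column (FPM) and, for any comparison of level between genes, as FPM per kilobase of exon (per kb), because a long transcript yields more fragments than a short one at the same number of molecules. The error is the standard deviation that the quantification model deposited with each value (model SD), which is not a spread between hearts. At the depth of the column 1 FPM stood for 18.5 fragments, and the median model SD was 35.5% of the value for genes of 1 to 5 FPM and 12.9% for genes of 50 to 200 FPM. Above 1000 FPM it was 18.6%. The model SD exceeded the value itself in 442 genes at or above 1 FPM, and 76 of the 301 such genes with a position lay on chromosome 8, against 746 of all 14314 genes at or above 1 FPM with a position. A pair of genes is given as ordered only where the levels lay more than 2 combined model SD apart.

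Of 49662 genes in the table, 32729 matched a symbol, and 15389 reached 1 FPM. Of the last, 14314 had an exon length here, and the others stand in no rank per kb. Another 22437 genes were at 0. The genes at or above 1 FPM had a median of 26.2 FPM and a median of 8.15 per kb, and 62 genes exceeded 1000 FPM. Among the estimated genes expression was concentrated, since 1289 genes held 50% of the fragments and the 100 most abundant genes held 17.6%. The column total counts 27 genes that were marked too abundant to estimate at 0, so every FPM and share leaves their fragments out. The concentration over all transcripts is therefore not known. Protein-coding genes took 96.7% of the fragments and annotated pseudogenes 1.16%. Of 20817 protein-coding genes with an estimate, 13224 reached 1 FPM, and counts of list or family members are to be read beside that share.

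Genes that serve other organs were under 1 FPM. Among 1227 olfactory, vomeronasal and taste receptors, hair keratin-associated proteins, beta defensins and members of the prolactin family, 1128 genes (91.9%) were at 0 and 0 reached 1 FPM. The highest of them was the olfactory receptor Olfr1033 at 0.912 FPM. This holds in FPM and sets no floor per kb, since long genes at or above 1 FPM had low levels per kb, such as Myh8 at 0.115 ± 0.0425.

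Contractile, globin and growth-regulating genes led the transcriptome. Per kb the highest protein-coding gene was Hbb-y, the embryonic beta globin, at 9630 ± 3306 (model SD). It was followed by mt-Nd2, a mitochondrially encoded subunit of respiratory complex I, at 7486 ± 2742, and by Actc1, cardiac alpha actin, at 5588 ± 2259. The next were Hba-x, the embryonic alpha globin, at 3616 ± 951, and Tnnt2, cardiac troponin T, at 2763 ± 650. Igf2, the imprinted fetal growth factor, reached 2280 ± 1300 per kb and was the most abundant gene in fragments, with 12526 FPM. The 20 highest protein-coding genes also held Myl9, Nppa, Myl7, Hbb-bh1, Myl2, Tnnc1, AF085738, Mest, Myl3, Rpl4, Rplp1, Rpl8, Hsp90ab1 and Hba-a1, ending at 970 ± 145 per kb. No neighbours in this order of 20 were apart by more than 2 combined model SD, so the order is that of the point values alone. Short non-coding features reached the same range, mmu-mir-703 with 440 FPM and the pseudogene Gm12328 with 378 FPM, and their levels per kb rest on very short annotated lengths. The span of mmu-mir-703 lies wholly within Eef1a1 on the same strand, so its fragments cannot be told apart from those of that gene. Counted by FPM, the 20 most abundant genes further included Myh7, Myh6, Atp5b, Tpm1, Nedd4, Eef2, Atp5a1, Igf2r, Grb10 and Myl4.

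**Figure D1:**
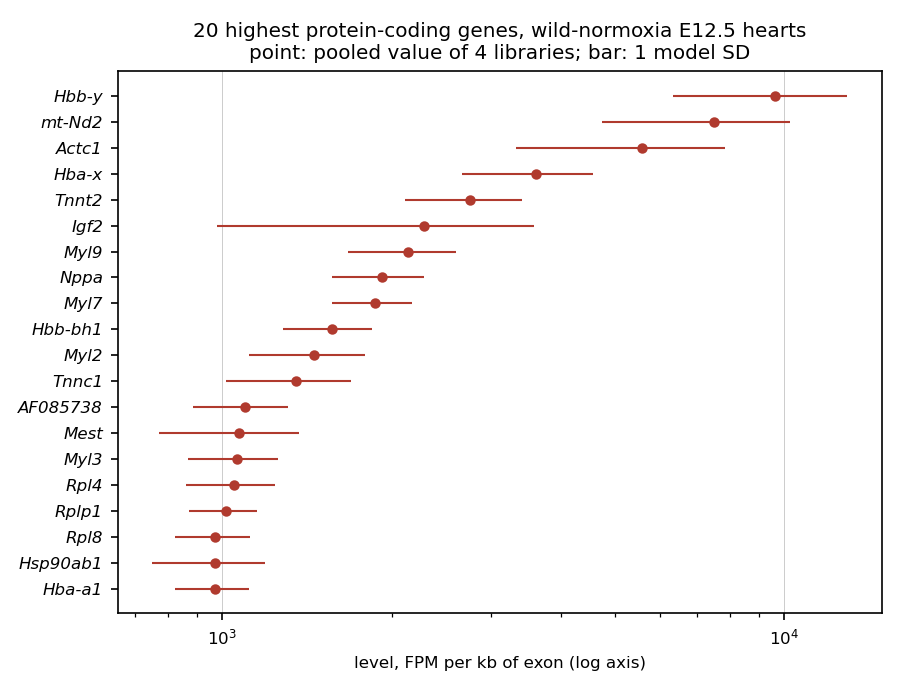
The 20 protein-coding genes with the highest levels per kb in wild-normoxia hearts, with the level in FPM per kb of exon on a log axis; points are the pooled value of 4 libraries and bars 1 model SD. Hbb-y (9630), mt-Nd2 (7486) and Actc1 (5588) lie at the top, and the bars of neighbouring genes overlap.

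Some transcripts have no level. The quantification marked 27 genes as too abundant to estimate and lists them at 0, and 1 further gene, Mon2, as failed. Several marked genes lie inside or against other marked genes, so the mark does not show that each was abundant by itself. The 0 of a marked gene is a missing estimate and not a measured absence, and these genes were left out of every rank and sum. Their fragments are also missing from the column total, so the shares given here are of the fragments of the other genes. They comprised 11 of the 13 protein-coding mitochondrial genes: mt-Nd1, mt-Nd4, mt-Nd4l, mt-Nd5 and mt-Nd6 of complex I, mt-Cytb of complex III, mt-Co1, mt-Co2 and mt-Co3 of complex IV, and mt-Atp6 and mt-Atp8 of the ATP synthase. The transfer RNAs mt-Ti, mt-Tq and mt-Ts1, which lie against these genes, were marked too. H19, the imprinted non-coding RNA neighbouring Igf2, had no estimate, nor had Mir675, the microRNA carried within H19. Myo3a, an unconventional myosin of sensory hair cells, was the other coding gene marked, together with the pseudogenes Gm13339, Gm13340, Gm13341 and Gm13342 inside its span (chr2:22149130-22473772, NCBIM37). Of the 40-base words of Gm13340, as long as 1 read, 34.8% were also present in the mitochondrial genome, as were 41.7% of those of Gm13341 and 21.4% of those of Gm13339, against 0 of the 168 words of Gm13342. Whether reads of mitochondrial origin filled the Myo3a span was not tested. The remaining 6 marked identifiers have no symbol here.

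The contractile apparatus of the cardiomyocyte was the strongest lineage programme. All 33 listed genes exceeded 1 FPM, they held 4.56% of the fragments, and their median level was 259 per kb against 8.15 per kb over all genes at or above 1 FPM. In the thin filament, Actc1 stood at 5588 per kb, the calcium-binding troponin subunit Tnnc1 at 1352 ± 339, and Tpm1, tropomyosin, at 497 ± 120. In the thick filament, the heavy chains Myh6 and Myh7 stood at 590 ± 150 and 506 ± 139 per kb, and Mybpc3, which binds myosin, at 337 ± 59.2. The Z-disc proteins Csrp3 (536 ± 74.6), Actn2 (285 ± 46.3) and Nexn (217 ± 31.9 per kb) followed. The giant protein gene Ttn, titin, was rarer per kb, at 13.2 ± 2.52. Myom2, an M-band protein of mature muscle, was the lowest of the list at 0.711 ± 0.165 per kb.

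Several contractile genes had in common a sequence feature that the list did not use. The CArG box, the 10-base element bound by serum response factor, was searched for in the 250 bases before each RefSeq start (GRCm38.p6), where its palindromic rule reads the same on both strands. Only exact matches were counted, with CC, then A or T alone, then GG, 10 bases in all. Sites that differ from this by a base, or lie further away, were not counted, so a gene without a match may still hold a site. It was found in 7 of the 27 contractile genes with a promoter sequence (25.9%), against 439 of 27018 genes overall (1.63%). Of 14302 named genes at or above 1 FPM, 9530 matched a promoter sequence, and 140 of these held a box (1.47%). Boxes were not confined to muscle lists. They were found in 2 of 17 imprinted genes (11.8%), Igf2 and Meg3, and in 1 of 9 sex-linked genes (11.1%), but in 0 of 21 glycolytic and 0 of 44 respiratory chain genes. Among 13 smooth muscle genes only Myl9 held an exact match, and among 17 cardiac transcription factors Hopx and Srf did. The stretches around these boxes are shown because Actc1, Myl7 and Myl3, among the highest genes of the heart, hold one, with the CArG box in capitals, 20 bases on each side and 5′ to 3′ on the strand of the gene:
Actc1: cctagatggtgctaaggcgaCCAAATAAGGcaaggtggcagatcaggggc
Acta1: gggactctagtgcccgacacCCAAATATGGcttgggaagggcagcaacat
Myl3: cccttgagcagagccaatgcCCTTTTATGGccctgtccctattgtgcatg
Myl7: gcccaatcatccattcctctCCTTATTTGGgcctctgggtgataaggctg
Myom1: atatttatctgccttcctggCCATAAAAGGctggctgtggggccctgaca
Ldb3: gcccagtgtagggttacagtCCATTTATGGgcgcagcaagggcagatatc
Nebl: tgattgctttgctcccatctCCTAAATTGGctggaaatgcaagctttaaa
Myl9: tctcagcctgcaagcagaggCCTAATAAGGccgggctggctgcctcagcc
Hopx: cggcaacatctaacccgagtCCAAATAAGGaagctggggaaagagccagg
Srf: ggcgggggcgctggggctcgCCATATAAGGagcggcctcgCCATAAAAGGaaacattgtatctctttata

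These boxes began 47 bases before the start in Actc1 (window chr2:114052893-114052942, minus strand), 61 bases before it in Myl7 (chr11:5898814-5898863, minus strand), 73 in Acta1 (chr8:123894819-123894868, minus strand) and 85 in Myl3 (chr9:110763573-110763622, plus strand). In Ldb3 the distance was 35 bases (chr14:34588687-34588736, minus strand), in Myom1 99 bases (chr17:71019438-71019487, plus strand) and in Nebl 162 bases (chr2:17462989-17463038, minus strand). Counted from another RefSeq start of Ldb3, the same box began 109 bases before it. Outside the sarcomere the box began 161 bases before the start of Myl9 (chr2:156775283-156775332, plus strand) and 83 bases before that of Hopx (chr5:77115177-77115226, minus strand). Srf, the gene of the factor itself, held 2 boxes that began 82 and 62 bases before its start (chr17:46556195-46556264, minus strand). The box of Actc1 and that of Hopx were the same 10 bases. Genes with and without a box overlapped in level, since Nebl stood at 56.7 ± 8.70 per kb with a box and Tnnt2 at 2763 per kb without one in this window. A match in letters does not show that the site is bound.

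Among the muscle genes with fetal and adult or tissue-specific versions, some pairs were far apart and others close. Ventricular-type and atrial-type genes were present together, as both chambers were in each sample. Myh7, the slow heavy chain, and Myh6, the fast one, were not ordered (ratio of levels per kb 0.859, log2 −0.22 ± 0.54, standard error from the model SD), and 26.7% and 27.4% of their transcripts' 40-base words lie elsewhere, so that fragments of these genes could be exchanged. The ventricular regulatory light chain Myl2 and the atrial Myl7 were not ordered either (ratio 0.777), and this ratio turned to 1.70 with the longest transcript as length and to 2.57 without division by length. The essential light chain Myl3 was 2.04-fold above Myl4 per kb (log2 1.03 ± 0.41), but the direction turned without division by length, with a ratio of 0.576. Slow skeletal troponin I, Tnni1, the fetal version, was 2.44-fold above the cardiac version Tnni3. Tnnt2 exceeded the slow skeletal troponin T gene Tnnt1 35.7-fold, and 17.5-fold with the longest transcript as length. The study's own supplement gives Tnnt1 a wild-normoxia level several times the one found here, so the size of this ratio is uncertain.

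For the actins, Actc1 exceeded Acta2, the smooth muscle actin, 7.72-fold and Acta1, the skeletal actin, 21.6-fold, although the level of Acta1 (259 ± 217 per kb) was poorly determined. Myom1 was 156-fold above Myom2, and 89.9-fold with the longest transcript as length. Genes of skeletal muscle were uneven. Their median was 0.514 per kb, or 10.8 per kb over members at or above 1 FPM alone, and 7 of 19 listed genes stood above the median of all expressed genes. Another 7 were under 1 FPM, namely the determination factors Myod1, Myf5, Myf6 and Pax7, the channel and receptor genes Cacna1s and Chrna1, and Tnnc2. The highest of that list, Des (229 ± 35.3 per kb), Tnnt1 (77.4 ± 9.86), Ckm (38.96 ± 5.32) and Tnni2 (33.5 ± 4.54), include genes of heart muscle, such as Des, desmin, and Ckm, muscle creatine kinase, but also Tnni2, the fast skeletal troponin I.

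**Figure D2:**
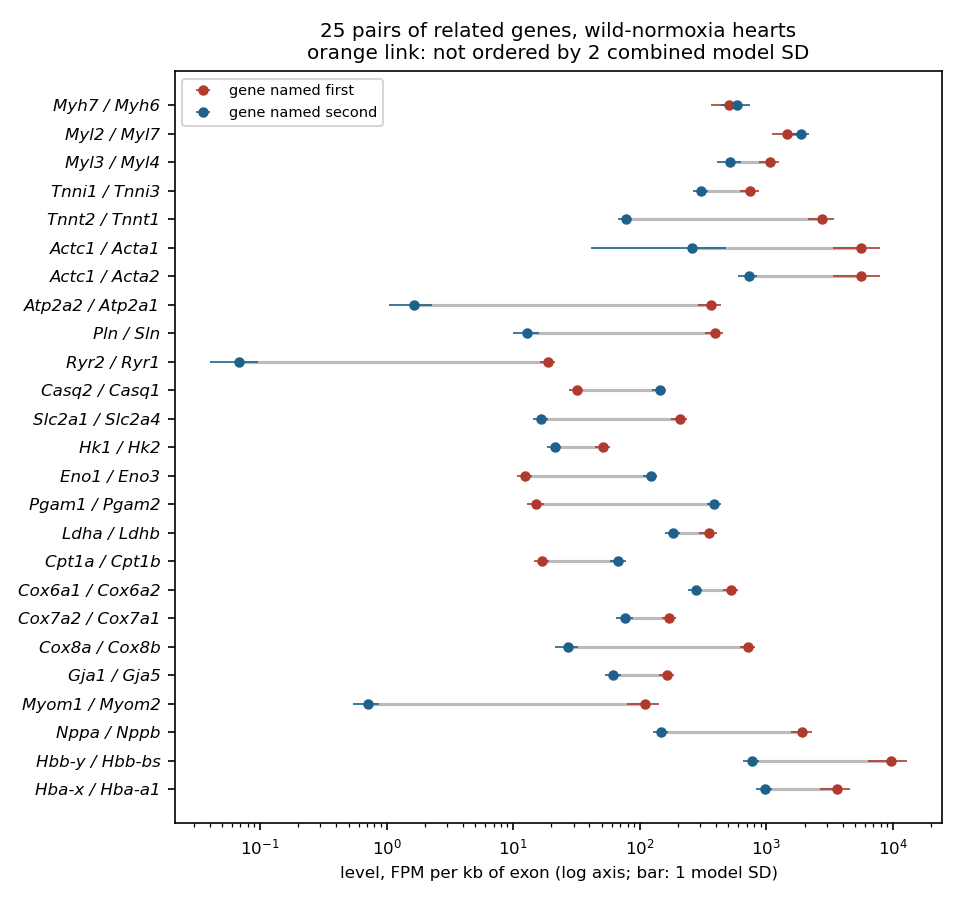
Levels of 25 pairs of related genes in FPM per kb of exon on a log axis, red for the gene named first and blue for the gene named second, with bars of 1 model SD; orange links mark the pairs that were not ordered. Myh7 with Myh6 and Myl2 with Myl7 nearly coincide, whereas Ryr2 and Ryr1 lie 276-fold apart.

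Chamber markers were present from both sides of the atrioventricular junction. All 15 atrial and all 15 ventricular genes exceeded 1 FPM, with medians of 39.1 and 123 per kb. Nppa, the natriuretic peptide of the atria and trabeculae, led the atrial list at 1925 ± 356 per kb and was 13.1-fold above Nppb (147 ± 18.9). Myl7 (1872 ± 307), Myh6 (590 ± 150) and Myl4 (519 ± 113 per kb) came next, and Bmp10, a trabecular growth factor, stood at 162 ± 20.7. Sln, sarcolipin, an atrial inhibitor of the calcium pump, was low at 12.9 ± 2.94. The ventricular list was led by Myl2 (1455 ± 339), Myl3 (1061 ± 194), Myh7 (506 ± 139) and Pln, phospholamban (394 ± 64.4 per kb).

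The core cardiac transcription factors were well expressed, though less than the contractile genes. Of 28 listed factors 26 exceeded 1 FPM, with a median of 25.9 per kb against 259 per kb for the contractile list. Nkx2-5, the homeobox factor mutated in the other arm of the study, had the highest point value per kb, 130 ± 16.5 (199 FPM). Smyd1, a muscle methyltransferase, stood at 130 ± 20.5, Tbx20 at 123 ± 17.6 and Hand2, the right ventricular and cushion factor, at 107 ± 13.9. The rank of Nkx2-5 rests on the division by length, since Tbx20 (555 FPM), Gata4 (372 FPM) and Gata6 (276 FPM) were among the factors with more fragments. Gata4 (95.1 ± 12.6) and Gata6 (86.4 ± 11.6) were higher than Gata5 (16.2 ± 2.17 per kb), which acts mainly in endocardium and epicardium. Srf reached 58.4 ± 24.2 and its coactivator Myocd 13.2 ± 1.69. Factors of the progenitor fields were at the bottom, with Isl1 at 2.05 ± 0.512 per kb, and Tbx1 (0.980 FPM) and Foxh1 (0.391 FPM) were under the limit of 1 FPM. Neighbouring factors were apart by more than 2 combined model SD in only 4 of 27 steps of the order.

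**Figure D3:**
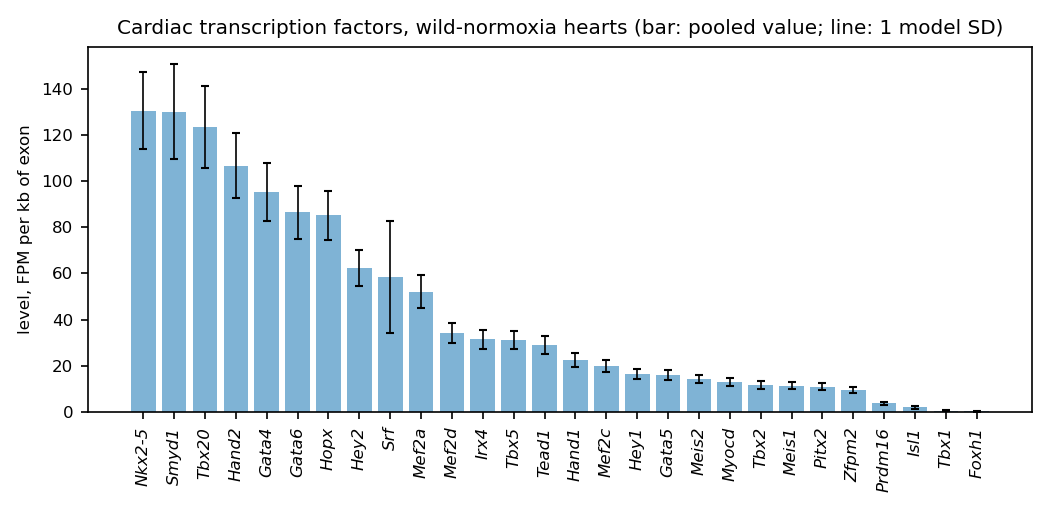
Levels of the 28 listed cardiac transcription factors in FPM per kb of exon, from high to low; bars are the pooled value and lines 1 model SD. Nkx2-5 and Smyd1 lie near 130, and Isl1, Tbx1 and Foxh1 are barely above the axis.

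Transcription factor families differed in how many members reached 1 FPM. The RNA is that of whole hearts with blood, so these counts are not read as use by cardiac cells. All 6 GATA factors and all 6 Iroquois factors exceeded 1 FPM, led by Gata4 (372 FPM) and Irx4 (81.9 FPM). In the T-box family 8 of 16 members did so, led by Tbx20 with 555 FPM. Hox genes, which pattern the trunk and are used by few cardiac cells, had 14 of 38 members at or above 1 FPM and a highest level of 10.7 FPM for Hoxb3. In the forkhead family 20 of 43 members reached 1 FPM. Over all protein-coding genes it was 13224 of 20817.

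The genes of the pacemaker and conduction system were present at low levels, with 18 of 19 above 1 FPM and a median of 5.00 per kb. Hcn4, the pacemaker channel, stood at 21.4 ± 2.74 per kb, and Hcn2 was under the limit at 0.871 FPM. Id2, which is not restricted to conduction cells, was the highest at 171 ± 21.6, and the connexins Gja5 (61.9 ± 8.66), of fast-conducting cells, and Gjc1 (22.4 ± 2.80 per kb) followed. Shox2, the sinus node factor, reached 16.0 ± 3.29 and Tbx3 5.00 ± 0.767.

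Ion channels as a group were likewise low, with 23 of 26 above 1 FPM and a median of 5.28 per kb. Gja1, the main ventricular connexin, was the highest at 163 ± 22.7 per kb, 2.64-fold above Gja5, and 1.68-fold above it with the longest transcript as length. The potassium channels Kcnh2 (34.4 ± 4.36) and Kcnj5 (32.1 ± 4.02 per kb) were also among the listed channels. Kcng2, which was not listed, was the highest potassium channel gene per kb at 105 ± 14.1, on a short annotated length of 0.705 kb. Kcnip2 and Scn4b, auxiliary subunits of the mature myocardium, were under 1 FPM along with Hcn2. Across all symbol-defined families, 52 of 92 potassium channel genes and 7 of 19 connexins reached 1 FPM, against 13224 of 20817 protein-coding genes.

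All 27 calcium-handling genes exceeded 1 FPM, with a median of 17.2 per kb. The cardiac pump Atp2a2 (363 ± 73.0 per kb) exceeded the skeletal Atp2a1 218-fold, and its inhibitor Pln exceeded Sln 30.5-fold. The release channel Ryr2 (18.9 ± 2.49 per kb) exceeded the skeletal Ryr1 276-fold. Calr, calreticulin, which buffers calcium in the fetal reticulum, reached 307 ± 47.6 and the sodium-calcium exchanger Slc8a1 245 ± 36.5. Calsequestrin went the other way: Casq1, known as the skeletal form, stood at 143 ± 18.6 and Casq2, the cardiac form, at 31.7 ± 4.12 per kb, a ratio of cardiac to skeletal of 0.221.

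Endothelium and endocardium were measured by 34 genes, and all exceeded 1 FPM, with a median of 22.1 per kb. Plvap, of fenestrated vessels (95.2 ± 12.9), Cdh5, the endothelial cadherin (88.0 ± 11.6), Eng (72.3 ± 9.91) and Plxnd1 (64.3 ± 8.81 per kb) led. The receptors Tek (49.4 ± 6.28) and Kdr (22.0 ± 2.76) and the endocardial genes Npr3 (40.9 ± 5.28) and Nfatc1 (12.6 ± 1.61) stood in the middle. Sox17 was the lowest of the list at 1.502 ± 0.395. Neighbours in this list were nowhere apart by more than 2 combined model SD.

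The cushion and valve mesenchyme was represented by all 24 of its genes, with a median of 22.0 per kb. The matrix genes Fn1, fibronectin (252 ± 50.4), Vcan, versican (106 ± 20.6), Postn, periostin (77.7 ± 11.3), and Eln, elastin (74.1 ± 9.93 per kb), were at the head. Twist1 (50.7 ± 6.47), Sox9 (10.1 ± 1.40) and the epithelial-to-mesenchymal factors Snai1 (11.7 ± 1.92) and Snai2 (11.3 ± 1.77) formed the regulatory part. The 20 genes of fibroblasts and matrix had a median of 27.5 per kb, led by Sparc (512 ± 95.2), Col3a1 (97.5 ± 15.04), Mfap4 (62.1 ± 10.1) and Gsn (57.0 ± 7.14). Of the annotated collagen chains, 37 of 43 reached 1 FPM, led by the basement membrane chain Col4a1 with 939 FPM, and all 11 laminin chains did so.

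Epicardial genes were present at a median of 11.98 per kb, with 17 of 17 above 1 FPM. Upk3b (55.3 ± 6.96 per kb), Podxl (34.0 ± 4.28), Tcf21, a factor of the epicardium and its descendants (30.3 ± 4.29), and Krt19 (23.7 ± 3.26) led, and Wt1, the classical epicardial factor, stood at 5.63 ± 0.807. Smooth muscle genes formed an uneven list. Myl9 (2140 ± 463), Acta2 (724 ± 124), Tagln (228 ± 41.3) and Cnn1 (181 ± 24.5 per kb), which fetal cardiomyocytes also express, were among the highest in the heart. Myh11, the smooth muscle heavy chain, was only 1.65 ± 0.322 and Lmod1 1.92 ± 0.416.

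Red cell transcripts were abundant through the globins. The 26 red cell genes all exceeded 1 FPM and held 1.42% of the fragments, with a median of 24.6 per kb. Most of that sum came from the globins, since the list fell to 1776 FPM with globin and mitochondrially encoded genes left out, against 14197 FPM with them. The embryonic globins Hbb-y (9630), Hba-x (3616) and Hbb-bh1 (1565 ± 284 per kb) had higher point values than the definitive globins, with Hbb-y 12.6-fold above Hbb-bs and Hba-x 3.73-fold above Hba-a1 (970 ± 145). The definitive genes share most of their words with near-identical copies (93.9% in Hba-a1, 92.2% in Hba-a2 and 52.9% in Hbb-bs), so their levels are uncertain, while Hbb-y, Hba-x and Hbb-bh1 share none.

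Genes of other blood cells were low. Platelet genes had a median of 2.90 per kb, with Pf4 at 19.7 ± 4.39 and Gp6 under 1 FPM. Thbs1, at 48.3 ± 6.24 the highest of that list, is made by many cell types. Macrophage genes had a median of 1.14 per kb, led by Lyz2 (20.7 ± 3.12), C1qb (9.29 ± 1.86), C1qa (5.54 ± 1.34) and Fcer1g (4.57 ± 1.31). Of these 24 genes 17 were at or above 1 FPM, against 13224 of all 20817 protein-coding genes, and 8 at or above 5 FPM. The lymphocyte genes Cd3e and Cd79a, the granulocyte gene Ly6g, the only listed gene at 0, and Cd163, Cd14, Aif1 and Itgam were under 1 FPM.

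Markers of neighbouring tissues were mostly low. Their counts at or above 1 FPM stand beside 13224 of all 20817 protein-coding genes. A count near that share is not read as detection of a tissue. Of 18 neural crest and glial genes 13 exceeded 1 FPM and 6 reached 5 FPM, with a median of 0.795 per kb. Ednrb, a receptor also found in cardiac endothelium, stood at 66.8 ± 8.47 per kb and Mitf, the pigment cell factor, at 10.3 ± 1.36, both above the median of all expressed genes, and Sox10, the defining crest factor, was at 2.18 FPM. Foxd3, Phox2a, Dct and S100b were among those under 1 FPM. Of 22 neuronal genes 16 exceeded 1 FPM and 10 reached 5 FPM. Their median was 0.872 per kb, with the sympathetic genes Th and Dbh and the factors Isl2, Pou4f1 and Neurod1 under 1 FPM together with Chga. Gap43 (21.3 ± 3.06) led them, ahead of Stmn2 (4.62 ± 1.01) and Nefl (2.62 ± 0.876), whereas the value of Tubb3 (14.2 ± 44.5 per kb) was undetermined.

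Foregut genes had 8 of 16 members under 1 FPM, namely Nkx2-1, Sftpc, Shh, Foxa1, Foxa2, Foxe1, Pax8 and Pax9, and only the Iroquois factors Irx1 (12.1 ± 1.85) and Irx2 (10.8 ± 1.54 per kb), also cardiac, stood out. Keratinocyte genes had a median of 0.871 per kb, led by Perp (41.9 ± 5.37), a desmosomal gene also of the myocardium, then Grhl1 (4.77), Grhl3 (3.58) and Krt5 (2.79), with Krt1, Lor, Ivl and Dsg3 under 1 FPM.

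Liver transcripts were present at low levels. Of 19 hepatocyte genes 17 exceeded 1 FPM and 10 reached 5 FPM, led by Afp, alpha-fetoprotein, at 117 FPM, and Alb, albumin, at 62.1 FPM, followed by Trf, transferrin, at 35.6 FPM, Serpina6 at 26.7 FPM and Apoa1 at 19.2 FPM. The value of Trf was poorly determined, with a model SD of 64.4%, and 80.3% of its 40-base words lie elsewhere. Per kb these were 56.0 ± 14.3 for Afp, 30.4 ± 7.40 for Alb, 15.5 ± 3.82 for Apoa1 and 15.1 ± 3.73 for Serpina6. The list as a whole held 0.0335% of the fragments. The liver factor Hnf4a stood at 3.03 FPM and Cps1 and Serpina1a were under 1 FPM. Which cells carried these transcripts was not tested.

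**Figure D4:**
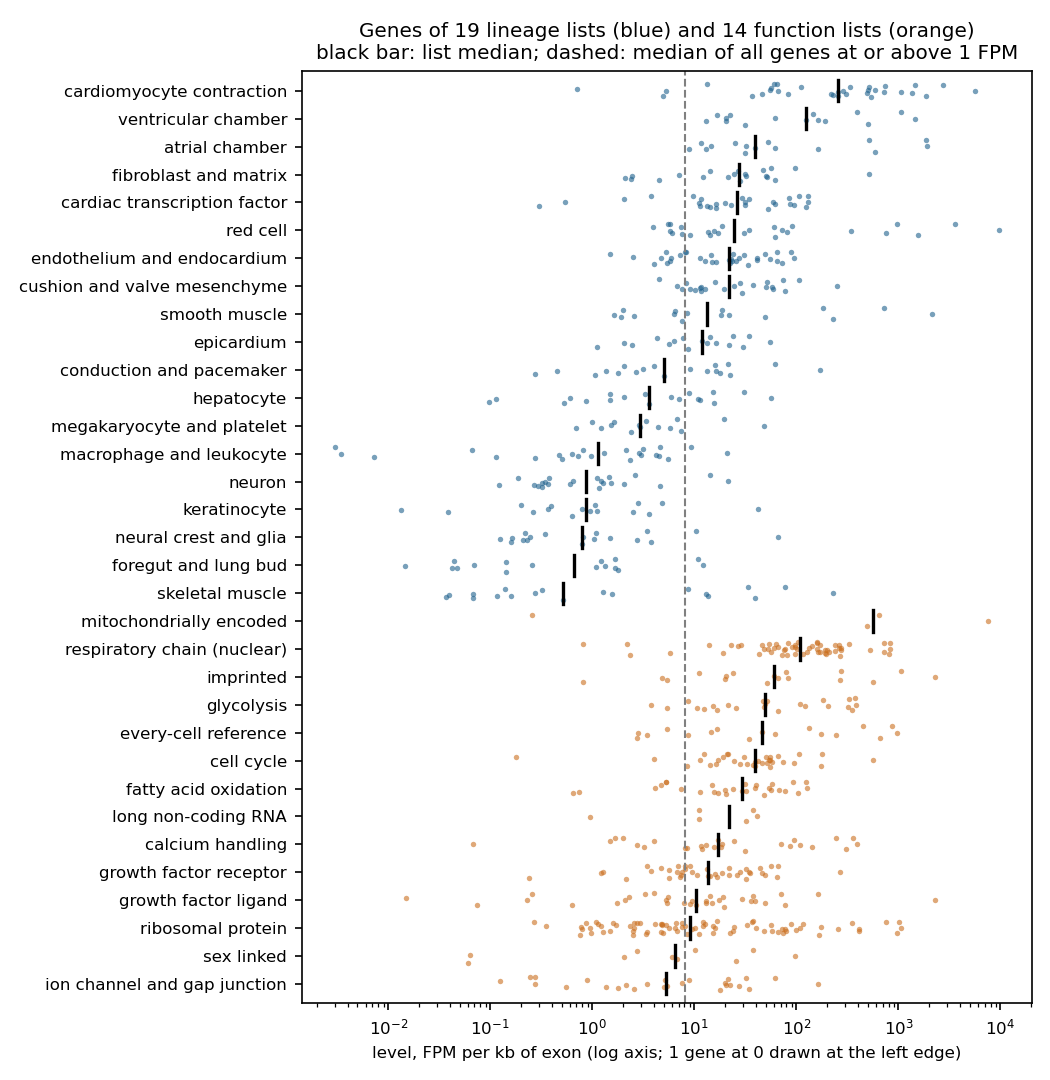
Levels of the members of 19 lineage lists (blue) and 14 function lists (orange) in FPM per kb of exon on a log axis; each point is a gene, black bars are list medians and the dashed line is the median of all genes at or above 1 FPM (8.15). Contractile genes lie highest among lineages with a median of 259, and the neural crest, neuron, keratinocyte, foregut and skeletal muscle lists lie below 1.

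Energy metabolism was led by the respiratory chain. All 58 nuclear genes of respiratory complexes I to V, with cytochrome c, exceeded 1 FPM, they held 1.69% of the fragments, and their median was 110 per kb. The ATP synthase subunits Atp5a1 (825 ± 179) and Atp5b (804 ± 198) and the cytochrome oxidase subunits Cox6b1 (820 ± 111) and Cox8a (718 ± 96.4 per kb) were highest. Cox6a1, the form of most tissues, was 1.91-fold above the muscle form Cox6a2, Cox7a2 was 2.23-fold above the muscle form Cox7a1, and Cox8a 26.7-fold above the muscle form Cox8b.

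Glycolytic genes had a median of 48.8 per kb, all 23 being above 1 FPM. Pgam2, the muscle phosphoglycerate mutase (388 ± 50.9), Aldoa (377 ± 60.9), Ldha (350 ± 56.3) and Tpi1 (324 ± 48.1 per kb) led. The glucose transporter Slc2a1 (206 ± 29.1) exceeded the insulin-dependent Slc2a4 12.48-fold, and Hk1 exceeded Hk2 2.42-fold, or 4.46-fold with the longest transcript as length. Ldha was 1.91-fold above Ldhb. The ubiquitous enolase Eno1 stood at 0.102 of the muscle form Eno3, or 0.251 with the longest transcript as length, and Pgam1 at 0.0392 of Pgam2, but Eno1 and Pgam1 share 74.9% and 93.0% of their 40-base words with other loci, against 0 for Eno3 and Pgam2, so neither ratio can be read as a ratio of molecules.

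Genes of fatty acid oxidation were all above 1 FPM as well (29 of 29) with a median of 29.6 per kb. Acadl (127 ± 16.3), Etfb (125 ± 15.7), Acaa2 (105 ± 13.1) and Fabp3 (93.1 ± 15.05 per kb) led, and the regulators Ppara (0.647 ± 0.203) and Pparg (0.741 ± 0.268) were lowest. The muscle carnitine palmitoyltransferase Cpt1b stood at 67.7 ± 9.66 per kb and the liver form Cpt1a at 16.9 ± 2.17, a ratio of liver to muscle form of 0.249.

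Cell cycle genes were broadly expressed, with 33 of 34 above 1 FPM and a median of 39.2 per kb, 32 of them above the median of 8.15 per kb over all expressed genes. The imprinted inhibitor Cdkn1c was highest (569 ± 95.5), followed by Ccnd3 (177 ± 25.7), Cdk4 (173 ± 25.7) and Ccnd2 (107 ± 16.7 per kb). The proliferation markers Mki67 and Top2a stood at 58.0 ± 8.33 and 55.2 ± 7.69 per kb, and the mitotic kinase Cdk1 at 52.0 ± 6.54. Cdkn2a, a senescence-linked inhibitor, was at 0.211 FPM.

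Growth factors were dominated by Igf2. Of 33 ligands 29 exceeded 1 FPM, with a median of 10.4 per kb, and after Igf2 came Bmp10 (162 ± 20.7), Vegfb (76.7 ± 9.63) and Bmp7 (70.0 ± 9.02 per kb). Vegfa, the hypoxia-responsive angiogenic factor, had a baseline of 49.6 ± 6.66 per kb. Nrg1, the endocardial signal for trabeculation, stood at 5.43 ± 0.921, and its receptors Erbb2 and Erbb4 in the myocardium at 35.2 ± 5.00 and 8.02 ± 1.01. Shh, Fgf8, Fgf16 and Fgf20 were under 1 FPM.

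Among receptors 39 of 40 exceeded 1 FPM, with a median of 13.5 per kb, and only Fgfr4 (0.850 FPM) did not. Igf2r, which binds and clears Igf2, was highest at 269 ± 58.7, followed by Ednrb (66.8 ± 8.47), Plxnd1 (64.3 ± 8.81) and Bmpr2 (56.5 ± 7.13 per kb). The signalling receptor Igf1r stood at 34.7 ± 4.35.

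Imprinted genes took a large share, 2.54% of the fragments in 17 genes, with a median of 59.97 per kb, although the model SD of Igf2, which makes up much of that sum, was 57.0% of its value. The list was led by Igf2 (2280), Mest (1070 ± 298), Cdkn1c (569) and Grb10 (273 ± 58.4 per kb), and only Phlda2 (0.611 FPM) was under 1 FPM. Airn, which runs antisense to Igf2r, was undetermined at 5.38 ± 13.5 per kb, and since no source states that strand was used in counting, fragments of overlapping genes cannot be assigned with certainty. Of 20 long non-coding RNAs on the list, 7 had an estimate, the highest per kb being Malat1 (40.8 ± 5.59), Xist (37.9 ± 6.59), Tug1 (32.3 ± 5.47) and Meg3 (11.2 ± 1.53).

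Genes of both sexes were present. Xist, expressed from the inactive X chromosome of females, reached 658 FPM, and the Y-linked Ddx3y, Eif2s3y, Uty and Kdm5d stood at 28.2, 28.2, 15.6 and 14.96 FPM. The X-linked partners Ddx3x (97.1 ± 13.5), Kdm5c (25.7 ± 3.20) and Kdm6a (10.1 ± 1.29 per kb) were expressed, whereas Eif2s3x was listed at only 0.228 FPM, with 93.8% of its 40-base words elsewhere. Tsix stood at 0.270 FPM.

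Genes that every cell uses did not all reach high levels, and several of the low ones had copies elsewhere. Hsp90ab1, a chaperone (971 ± 220), the elongation factor Eef2 (862 ± 187), the tubulin Tubb5 (659 ± 134) and the elongation factor Eef1a1 (449 ± 97.2 per kb) led the 17 genes of that list. Gapdh was listed at only 8.63 ± 2.21 per kb (19.4 FPM), Pgk1 at 5.37 ± 0.997 and Ppia at 2.77 ± 0.557 (9.73 FPM). The share of their transcripts' 40-base words that also occur elsewhere in the NCBIM37 genome or in another gene's transcript was 85.7% in Gapdh, 93.5% in Pgk1 and 62.3% in Ppia. Eef1a1 was high with 80.9%, so the share alone did not sort them.

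Ribosomal proteins varied widely. They are needed in nearly equal numbers, yet their listed levels ran between 0.271 per kb in Rps29 and 1050 ± 188 per kb in Rpl4, with Rplp1 (1013 ± 139), Rpl8 (971 ± 147) and Rps26 (755 ± 99.1) next to the top. Rpl23a, Rpl38, Rps16, Rpl36, Rpl29, Rpl17, Rps12 and Rps29 were under 1 FPM, and the median of the 78 genes was 9.05 per kb. The 6 genes with under 10% of their words elsewhere had a median of 137 per kb, the 19 genes with 10 to 50% a median of 48.6, and the 53 genes with at least 50% a median of 6.54. Spearman's rho between the share and the level was −0.53 across these 78 genes, which share the libraries and the annotation and are not independent replicates. The groups overlapped, since Rplp1 had 69.3% of its words elsewhere and Rps19 (4.68 ± 0.741 per kb) only 30.04%.

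Over all protein-coding genes with an estimate, 68.5% of 16269 genes with under 10% of words elsewhere reached 1 FPM, against 51.1% of 2984 genes with 10 to 50% and 35.7% of 1561 genes with at least 50%. How reads that fit several places were treated is not given in the sources used here, and whether that set these levels was not tested. The contractile list had 0 members with at least 50% of words elsewhere, as had the cardiac transcription factors, the cushion and the smooth muscle lists, so their levels rest on sequence that is mostly their own.

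**Figure D5:**
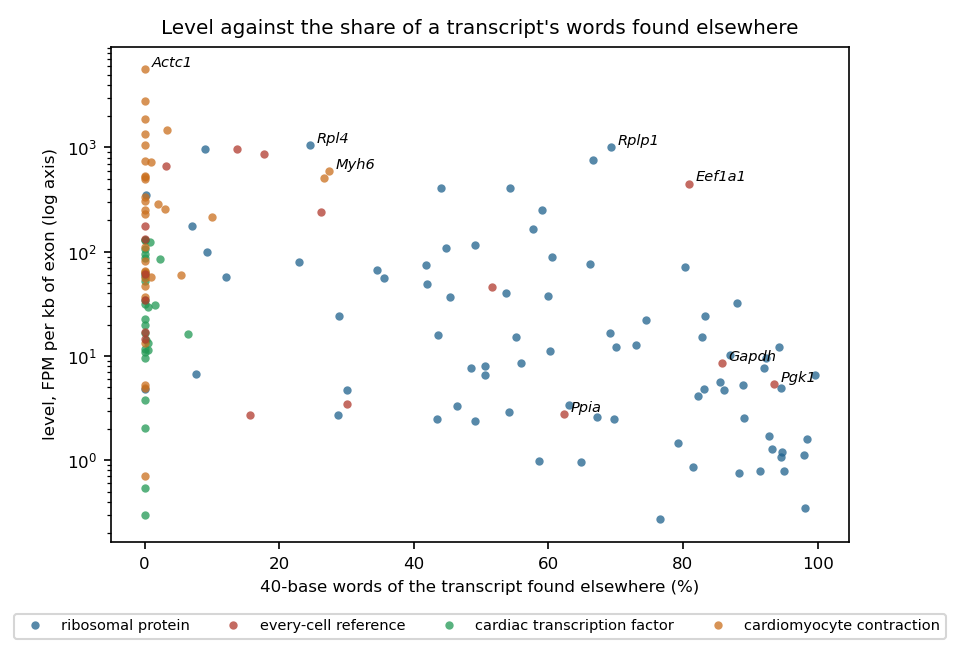
Level in FPM per kb of exon (log axis) against the percent of a transcript's 40-base words found elsewhere in the genome or in other transcripts, for ribosomal proteins, genes of every cell, cardiac transcription factors and contractile genes; each point is a gene. Contractile genes and transcription factors lie at the left with few shared words, apart from Myh6, Myh7 and Nexn, and Gapdh (85.7%) and Pgk1 (93.5%) lie at the right at low levels among ribosomal proteins.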

How the data were processed

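Poly-adenylated RNA of whole embryonic hearts was sequenced as single-end reads of 40 bases in libraries prepared with the TruSeq protocol; RNA integrity numbers were above 8. Per the labels and the study's methods, the authors mapped the reads to MM9 with TopHat and Bowtie2 and quantified genes with Cufflinks (for each program, no version is stated). The deposited table holds estimated counts per gene and their model variance, 1 value per group; the columns of the other groups were not used. Counts were divided by the column total and by the exon union of GENCODE M1 (NCBIM37), with python 3.11.15, pandas 2.3.3 and numpy 2.4.6. Some counted identifiers are not in GENCODE M1, so the authors counted on another gene set. Gene positions printed in the study's supplement, such as those of Hbb-bs and Hbb-bh1, are not those of NCBIM37, although its methods name MM9. Lengths, word shares and spans given here may therefore differ from those behind the counts. The supplement's wild-normoxia levels of Tnnt1, Tnnt3, Pf4 and Hopx are well above those found here, whereas those of Fth1 and Hbb-bh1 are close and that of Afp is lower. The model SD is the square root of the deposited variance, and covers the program's model only. No comparison between groups was made.

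The genes named are the 20 highest by FPM and per kb, those marked too abundant, the 4 highest members of each of 33 lists with members under 1 FPM, and 25 pairs; other members were named as part of a described range. The members and lists were chosen with earlier results of these data known. Of 766 listed genes, 748 matched the table. The 40-base words were read from the longest coding transcript of each gene and searched on both strands, leaving out the gene's own span; the search was tested on simulated sequences. Promoters are those of RefSeq. The alternatives were other limits of expression, denominators, lengths and filters. Some listed genes are not reported here.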

Additional observations from a re-analysis of the deposited data

How the results depend on the processing

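With mitochondrially encoded and haemoglobin genes left out of the denominator, the share of the 100 most abundant genes was 16.3%, against 17.6%. Without division by length the ratio of Myl3 to Myl4 was 0.576, below 1, as the annotated exons of Myl4 are longer. The numbers of genes at or above 1 FPM and of genes holding 50% of the fragments stayed within 1.5 times of their values under the denominators and filters tried, with 16924 genes at 0.5 FPM and 12130 at 5 FPM. Members at or above 5 FPM in place of 1 FPM differed by more than 1.5 times in 8 of 33 lists. With the longest transcript as length, list medians moved by more than the model SD in 13 of 33 lists and pair ratios in 8 of 25. Without division by length, ratios that moved by more than 1.5 times also included Atp2a2 to Atp2a1 (356), Pln to Sln (147), Pgam1 to Pgam2 (0.0854), Ldha to Ldhb (3.63), Cox7a2 to Cox7a1 (4.61) and Cox8a to Cox8b (40.2). An alternative chosen after seeing the data left out members with at least 50% of their words elsewhere. It moved the median of 8 of 14 lists with such members by more than the model SD, to 55.8 per kb in ribosomal proteins, 96.6 in the genes of every cell and 58.7 in glycolysis. No paired analysis was possible because the table holds 1 value per group, and for the same reason no library could be left out. At 1 FPM a level stands for 18.5 estimated fragments of the column, and values under it are not read as absent.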
